A study of Mus musculus with 4 samples.

Results

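Translation initiation and elongation factors are the proteins that bring ribosomes, messenger RNA and transfer RNA together and drive the ribosome along the message. A list of 40 genes named by symbol was followed here, and each gene was read from the brightest probe set assigned to it alone, by the mean over all 4 arrays. Of the 40, 35 genes had such a probe set among 15103 genes tested, and the other 5 (Eif1, Eif2s1, Eif3g, Eif4g1 and Eef1g) were not analysed here. The samples came from the tibialis cranialis, a shin muscle, of 8 male mice of the C57Bl/6 strain that were put on a high fat diet at 8 weeks of age. After 4 weeks on the diet, 1 leg received AAV8 ProMyo and the opposite leg received saline, and the muscles were taken 10 weeks later, at 22 weeks of age. AAV8 is an adeno-associated virus used to deliver genes, the labels do not spell out ProMyo, and the series title gives myostatin inhibition as the question. Myostatin is a secreted protein that limits muscle growth. The ProMyo group had 2 arrays and the saline group had 2 arrays. Each array held equal amounts of RNA from 4 animals, 1-4 or 5-8, so both groups share the animals, the diet and an injection, and the saline legs carried no empty vector.

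Initiation begins when eIF2, loaded with GTP, carries the initiator transfer RNA to the small ribosomal subunit, and eIF2B later reloads eIF2 with GTP. The large eIF3 complex holds the small subunit and the message together, while the eIF4 factors bind the cap of the message and unwind it. Elongation then rests on eEF1A, which delivers aminoacyl transfer RNAs, and on eEF2, which moves the ribosome by 1 codon. Skeletal muscle is a tissue in which protein synthesis is tied to growth signals, and adult fibres are known for using the eEF1A isoform encoded by Eef1a2 in place of the general isoform encoded by Eef1a1.

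The arrays had medians of 1.06 to 1.11 on the deposited log2 scale, which is low for this kind of value, so fold values hold on that scale only. The saline 5-8 array stood apart. Its upper quartile was 2.97 against 3.15 to 3.20 in the other 3 arrays, and its hybridization controls averaged 11.1 against 10.1 to 10.2. The highest Bacillus control on any array, at 0.99, was taken as the background level. All 35 members lay above it, between 3.73 and 10.4. The 10 markers of fast fibres measured here, among them Acta1 and Ckm, lay between 9.32 and 12.3 on every array, so the labelled tissue had its defining markers. The signal at the 3-prime end over the 5-prime end of Gapdh, which reflects RNA integrity and amplification, was 0.58 and 0.74 log2 units in ProMyo muscle, against 0.90 and 0.81 in saline muscle.

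Among the translation factors, subunits of eIF3 were mostly higher in ProMyo muscle, led by Eif3m, Eif3d and Eif3e, and the eIF4 factors at their brightest probe sets were mostly slightly lower. The lowest value belonged to Eif2b2, a subunit of eIF2B. None of these differences passed the test. Limma with Benjamini-Hochberg adjustment over all genes called 0 of 35 members (adjusted p from 0.82 to 1.00), as it called 0 of 15103 genes, or 0.00%. At an unadjusted p under 0.05 limma gave 1 member, Eif3m, against 5.79% of all genes. With the paired pools as a block it gave 2 of 35 members, Eif3m and Eif2b2, beside 1039 of 15103 genes. The standard errors of the members, which limma moderates toward the spread of all genes, ran from 0.15 to 0.47 log2 units. In bulk muscle, fewer cells of a type and less RNA per cell cannot be told apart.

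Within the pools, 13 of 35 members were higher in ProMyo muscle in both, where 29.0% of all genes were, and 10 were lower in both, where 24.0% of all genes were. The median difference over the members was 0.03 log2 units, and that over all genes was 0.01. Both ProMyo arrays lay above both saline arrays for 8 members, against 17.8% of all genes, and below both for 7, against 15.7%. No member differed by at least 1.5-fold in 1 direction in both pools, against 1.60% of all genes. These shares stand near those of all genes, and the balance of directions depended on the scaling. Quantile normalization gave 7 members higher and 12 lower in both pools, beside 25.1% and 29.7% of all genes. With the saline 5-8 array left out, 11 members were above the saline 1-4 array in both ProMyo arrays and 12 were below it, beside 29.5% and 36.9% of all genes. With the saline 1-4 array left out it was 15 and 7, beside 42.7% and 29.7% of all genes. The ProMyo 5-8 array alone was above both saline arrays for 10 members and below both for 15, beside 30.5% and 32.0% of all genes. The ProMyo 1-4 array alone gave 21 and 9, beside 35.2% and 27.3% of all genes.

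**Figure D1:**
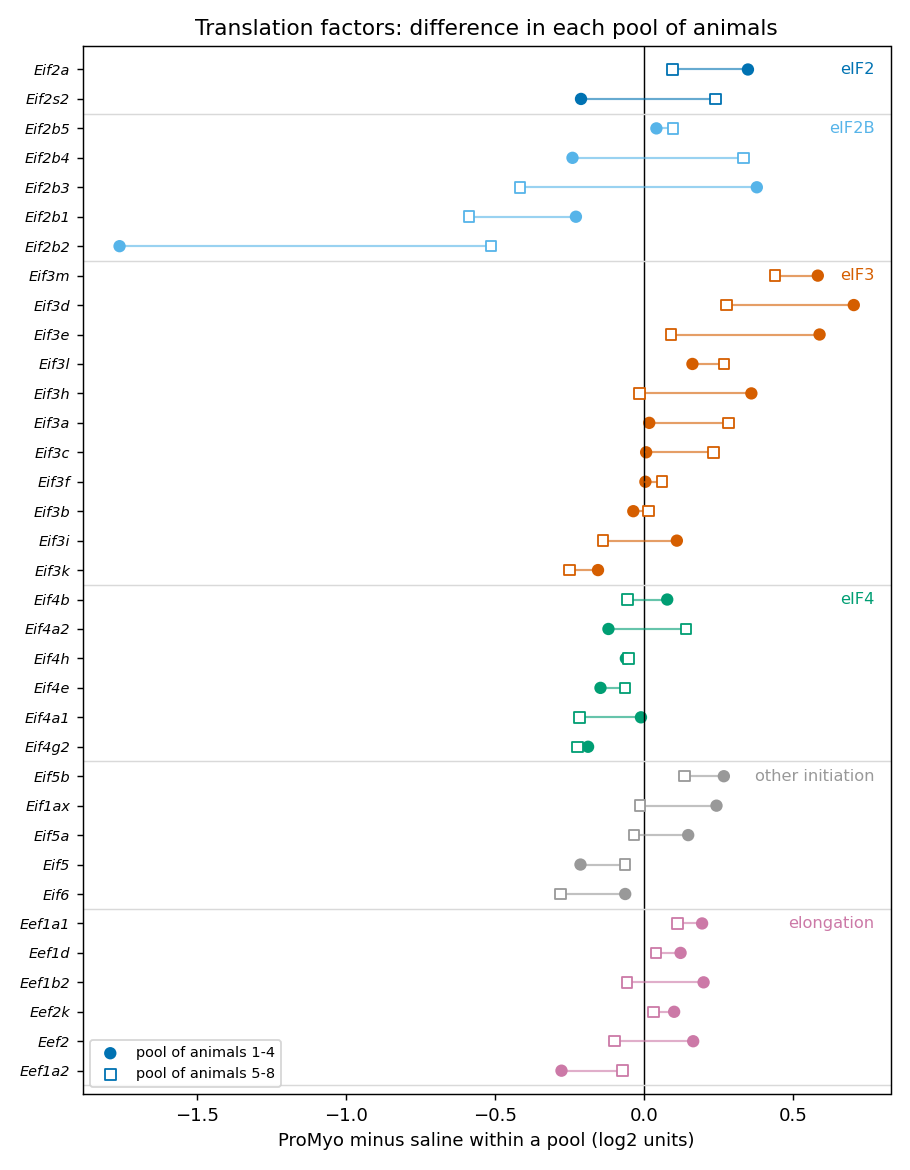
Difference of each measured translation factor, ProMyo minus saline in log2 units (horizontal axis), by gene (vertical axis), within the pool of animals 1-4 (filled circles) and 5-8 (open squares), grouped by class. Subunits of eIF3 lie mostly right of 0, with Eif3m at 0.58 and 0.44, and Eif2b2 lies left of 0 at -1.76 and -0.51.

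**Figure D2:**
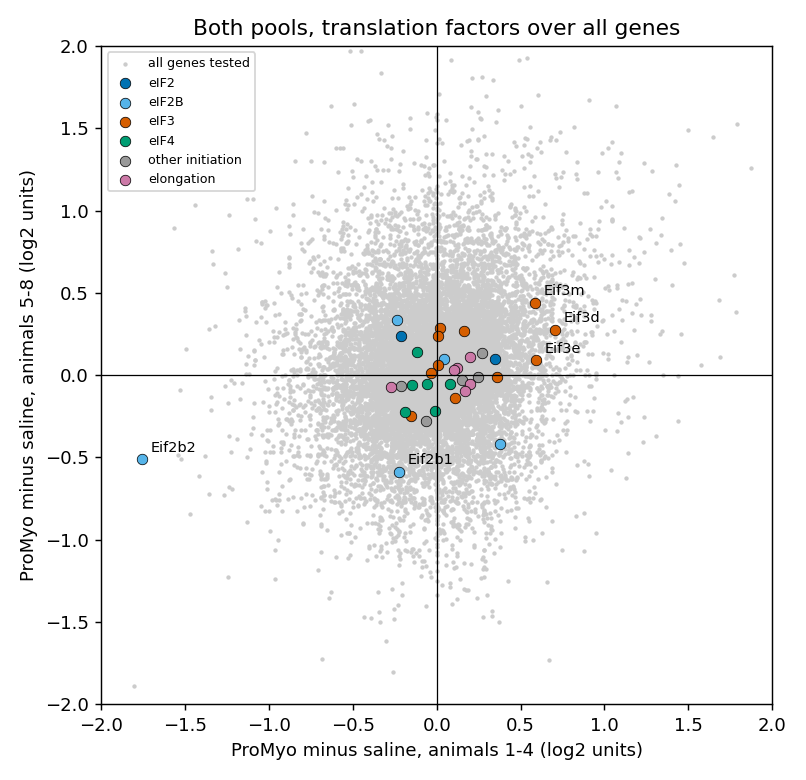
Difference in animals 1-4 (horizontal) against difference in animals 5-8 (vertical), in log2 units, for the 35 members by class (coloured) over all 15103 genes tested (grey, 4 outside the axes). The members lie within the cloud of all genes, apart from Eif2b2 at its left border.

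In the eIF2 class 2 of 3 genes were measured. Eif2s2, the beta subunit of eIF2, read 8.37 and 8.66 in the ProMyo 1-4 and 5-8 arrays, against 8.58 and 8.42 in the saline arrays of the same pools. The pools pointed opposite ways and the difference was 0.02 ± 0.18 (log2 ± SE, n = 2 pools per group). Of its 5 probe sets above background, 3 were higher with ProMyo in both pools and none was lower in both. Eif2a is not a subunit of eIF2 but encodes eIF2A, a separate protein that can also bring initiator transfer RNA to the ribosome. Eif2a read 4.56 and 4.48 in ProMyo muscle, against 4.21 and 4.38 in saline muscle. The groups did not overlap, and the difference was 0.22 ± 0.16 (limma, adjusted p = 0.86), or 0.14 without the saline 1-4 array. The second probe set of Eif2a above background had opposite directions, at -0.17 in pool 1-4 and 1.30 in pool 5-8.

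The 5 subunits of eIF2B, the exchange factor that recharges eIF2, had a median difference of -0.02. In both pools 1 was higher and 2 were lower, beside 29.0% and 24.0% of all genes. Eif2b2, the beta subunit (chromosome 12, 85219481 to 85226628 of GRCm38.p6), read 5.60 and 5.42 in ProMyo muscle, against 7.36 and 5.93 in saline muscle. The saline 1-4 array was high and the other 3 lay close together. The difference was -1.14 ± 0.47 (limma, adjusted p = 0.82; unadjusted p = 0.060, and 0.036 with the paired pools as a block), which put saline muscle 2.20-fold above ProMyo muscle. It was -0.42 without the saline 1-4 array and -1.85 without saline 5-8. The other 2 probe sets of Eif2b2 did not share it, with differences of 0.04 and -0.09.

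Eif2b1, the alpha subunit of eIF2B, read 4.01 and 4.17 in ProMyo muscle, against 4.24 and 4.76 in saline muscle. Both ProMyo arrays were below both saline arrays, with a difference of -0.41 ± 0.23 that was -0.15 without the saline 5-8 array. Eif2b5, the catalytic epsilon subunit, read 4.58 and 4.48 in ProMyo muscle, against 4.54 and 4.38 in saline muscle. Its groups overlapped and its difference was 0.07 ± 0.16. The gamma and delta subunits, Eif2b3 and Eif2b4, had opposite directions in the pools and differences of -0.02 ± 0.25 and 0.05 ± 0.30.

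In the eIF3 complex most measured subunits pointed the same way. Both pools had 7 of 11 higher with ProMyo and 1 lower, beside 29.0% and 24.0% of all genes. The median difference was 0.15, with 0.11 among animals 1-4 and 0.09 among animals 5-8. For Eif3a, Eif3c and Eif3f the difference among animals 1-4 was only 0.018, 0.008 and 0.0055. With arrays centred on their medians, 5 subunits were higher and 1 lower in both pools, with no share of all genes computed. The median was 0.09 with quantile normalization, where 4 were higher and 3 lower in both pools, beside 25.1% and 29.7% of all genes. It was 0.08 without the saline 5-8 array. There, 5 were above the saline 1-4 array in both ProMyo arrays and 2 below, beside 29.5% and 36.9% of all genes. With no test of the class, these counts describe the subunits and do not set them apart from other genes.

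Eif3m, a subunit of the complex's PCI and MPN domain core (chromosome 2, 104999656 to 105017027), read 6.44 and 6.34 in ProMyo muscle, against 5.85 and 5.90 in saline muscle. The arrays of each group lay close together and the groups were well apart. The difference was 0.51 ± 0.16, or 1.43-fold (limma, unadjusted p = 0.021, adjusted p = 0.82), and it stayed between 0.46 and 0.56 when any 1 array was left out. A dimmer probe set of Eif3m read 2.57 and 2.50 in ProMyo muscle, against 2.55 and 2.39 in saline muscle, a difference of 0.07. The brightest probe set carries the suffix by which the manufacturer marks probes shared among transcripts.

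Eif3d, the subunit that can itself bind the cap of certain messages (chromosome 15, 77958998 to 77970824), read 5.62 and 5.17 in ProMyo muscle, against 4.91 and 4.89 in saline muscle. The saline arrays were nearly equal and both ProMyo arrays lay above them. The difference was 0.49 ± 0.21, or 1.41-fold (limma, unadjusted p = 0.061, adjusted p = 0.82), and 0.27 without the ProMyo 1-4 array. Its dimmer probe set differed by 0.02.

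Eif3e, another core subunit (chromosome 15, 43250040 to 43282736), read 9.27 and 8.96 in ProMyo muscle, against 8.68 and 8.87 in saline muscle. The difference was 0.34 ± 0.19, or 1.27-fold (limma, adjusted p = 0.83), with 0.59 in pool 1-4 and 0.09 in pool 5-8. Without the ProMyo 1-4 array it was 0.19. The next probe set of Eif3e read 8.66 and 8.63 in ProMyo muscle, against 8.28 and 8.46 in saline muscle. A further one read 8.41 and 8.47 in ProMyo muscle, against 7.94 and 8.16 in saline muscle. All 3 probe sets of Eif3e above background thus had both ProMyo arrays above both saline arrays, with differences of 0.34, 0.27 and 0.39. These probe sets may share target sequence, and they read the same 4 RNA mixtures, so they are not separate replicates.

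Eif3a, the largest scaffold subunit, gave 0.15 ± 0.16 at the brightest probe set. Its other probe sets gave 0.33, 0.43 and 0.17, and the first 2 of these had no overlap between groups. Eif3c, another scaffold subunit, gave 0.12 ± 0.16, and 0.04, 0.22 and 0.11 at its other probe sets. Eif3l stood at 0.22 ± 0.18, Eif3h at 0.17 ± 0.21 and Eif3f at 0.03 ± 0.16. Eif3b, which carries an RNA-binding domain, and Eif3i stood near 0, each at -0.01. Eif3k was the subunit lower in both pools, at -0.20 ± 0.18.

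The promoter stretches of Eif3m and Eif3d, the subunits with the largest differences, are shown because both hold CGGAAG. It is a form of the letters bound by ETS family factors, and the choice of members did not use it. The sequences are the 150 bases before the annotated start, from RefSeq on GRCm38.p6 and read along the gene's strand, which is minus for both. Eif3m lies at chr2:105017028-105017177 and Eif3d at chr15:77970825-77970974. Capitals mark CGGAAG on either strand, and other forms were neither marked nor counted.
Eif3m: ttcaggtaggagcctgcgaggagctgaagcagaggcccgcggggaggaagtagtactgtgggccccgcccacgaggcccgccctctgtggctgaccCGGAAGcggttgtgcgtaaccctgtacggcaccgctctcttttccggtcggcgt
Eif3d: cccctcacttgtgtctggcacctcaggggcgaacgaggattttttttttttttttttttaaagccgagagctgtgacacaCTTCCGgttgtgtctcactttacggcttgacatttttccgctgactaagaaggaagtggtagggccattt
The letters CGGAAG occurred in windows of Eif2a, Eif3c, Eif3d, Eif3g, Eif3l, Eif3m, Eif4a1, Eif4a2 and Eif5a, 9 of 32 members with a promoter entry. Counted likewise by gene over any of its windows, that is 28.1% of the members and 11.8% of 27025 genes, while 10.4% of all 32851 single windows held them. The first window of each member had a median G and C content of 63.0%, against 54.0% over all genes. The E-box CACGTG, bound by MYC among others, was in the windows of 8 of the 32 members, against 4.92% of all genes and 4.30% of single windows. TATAAA was in those of 2 members, Eef2 and Eif3f, against 8.89% of all genes and 7.57% of single windows. Both strands were searched and these motifs do not overlap each other. A match describes the letters and is not a site of binding, and 8 members, Eif3e among them, had no promoter entry.

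Of the eIF4 factors, 6 of 7 were measured. At the brightest probe sets both pools had 4 lower with ProMyo and none higher, beside 24.0% and 29.0% of all genes. The median was -0.08. Eif4g2, a relative of the eIF4G scaffold that lacks the cap-binding partner's site, read 9.25 and 9.08 in ProMyo muscle, against 9.44 and 9.31 in saline muscle. The groups did not overlap and the difference was -0.20 ± 0.17 (limma, adjusted p = 0.87), or -0.12 without the ProMyo 5-8 array. Eif4e, the cap-binding protein, read 8.20 and 8.34 in ProMyo muscle, against 8.34 and 8.40 in saline muscle. The difference of -0.10 ± 0.16 was -0.03 without the ProMyo 1-4 array and -0.18 without ProMyo 5-8. The helicase gene Eif4a1 read 7.81 and 7.66 in ProMyo muscle, against 7.81 and 7.87 in saline muscle. The difference of -0.11 ± 0.16 was -0.19 without the ProMyo 1-4 array and -0.04 without ProMyo 5-8.

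Other probe sets of these genes did not all share the direction. The next brightest probe set of Eif4a1 read 6.50 and 6.11 in ProMyo muscle, against 5.65 and 5.88 in saline muscle, a difference of 0.54 in the opposite direction with no overlap. For Eif4e the other probe sets above background differed by 0.09 and 0.31. For Eif4g2 they differed by -0.04, -0.05 and 0.32. With the mean of each gene's probe sets, none of the 6 eIF4 genes was lower in both pools and 2 were higher, with a median of 0.02. The median over all genes was then 0.01, and their share in either direction was not computed. Eif4h and Eif4b, which stimulate the helicase, stood at -0.06 ± 0.15 and 0.01 ± 0.17. Eif4a2, the helicase paralog, stood at 0.01 ± 0.17 with opposite directions in the pools.

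Among the other initiation factors, 5 of 6 were measured. Eif5b, a GTPase that joins the ribosomal subunits, read 5.48 and 5.26 in ProMyo muscle, against 5.21 and 5.12 in saline muscle. The groups did not overlap at a difference of 0.20 ± 0.17, or 0.09 without the ProMyo 1-4 array, while its other probe sets gave -0.60 and 0.22. Eif5, which triggers GTP hydrolysis on eIF2, read 8.81 and 8.87 in ProMyo muscle, against 9.02 and 8.94 in saline muscle. Its difference was -0.14 ± 0.16, and 3 of its 5 probe sets were lower in both pools. Eif6, which keeps the large ribosomal subunit from joining too early, read 5.03 and 4.58 in ProMyo muscle, against 5.09 and 4.86 in saline muscle. The difference of -0.17 ± 0.22 was 0.05 without the ProMyo 5-8 array. Eif1ax, which aids scanning for the start codon, and Eif5a, the factor that carries the amino acid hypusine, stood at 0.12 ± 0.17 and 0.06 ± 0.16.

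**Figure D3:**
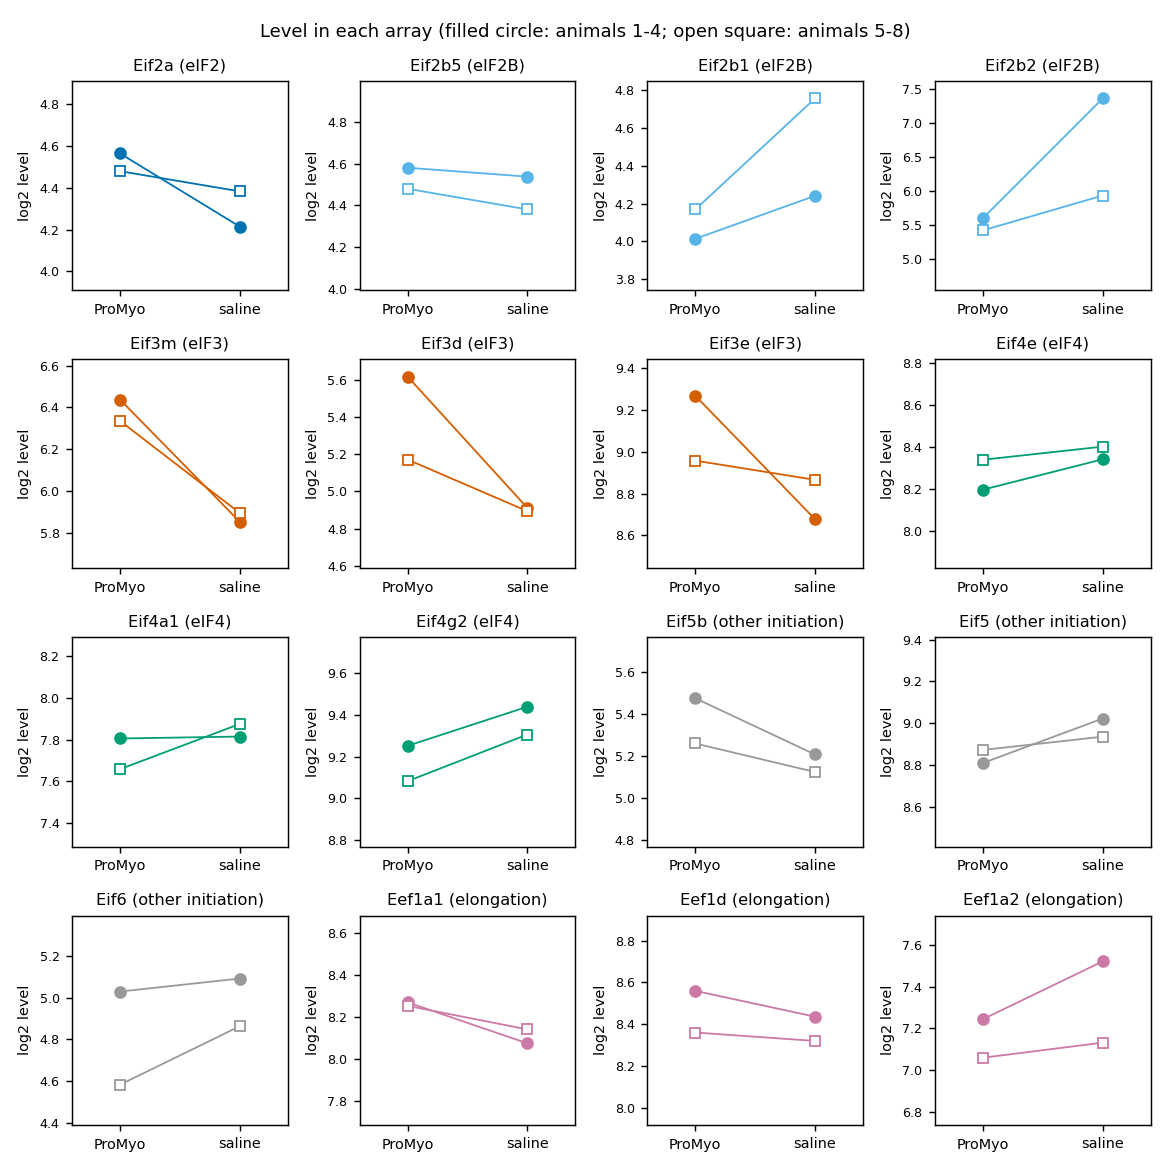
Level on the log2 scale (vertical axis) of 16 translation factors in ProMyo and saline muscle (horizontal axis), each panel 1 gene with its class; filled circles are animals 1-4, open squares animals 5-8, and lines join the muscles of the same pool. Each vertical axis covers at least 1 log2 unit, and the groups are widest apart relative to their spread for Eif3m.

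The isoforms of eEF1A pointed in opposite directions. Eef1a1, the general isoform (chromosome 9, 78478453 to 78481724), read 8.27 and 8.25 in ProMyo muscle, against 8.07 and 8.14 in saline muscle. Both ProMyo arrays were above both saline arrays, and the difference was 0.15 ± 0.15 (limma, adjusted p = 0.89). Eef1a2, the isoform of adult muscle fibres, heart and neurons (chromosome 2, 181141758 to 181157015), read 7.24 and 7.06 in ProMyo muscle, against 7.52 and 7.13 in saline muscle. The groups overlapped, since the ProMyo 1-4 array lay above the saline 5-8 array. The difference was -0.17 ± 0.20 (limma, adjusted p = 0.91), and 0.02 without the saline 1-4 array.

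Set against each other, the difference of Eef1a2 lay 0.47 log2 units below that of Eef1a1 in pool 1-4 (a shift of -0.47) and 0.18 below it in pool 5-8 (a shift of -0.18), with a mean shift of -0.33 ± 0.20 (SD, n = 2 pools). Leaving out saline 5-8 gave -0.56, leaving out saline 1-4 gave -0.10, and it was -0.33 with quantile normalization. No p is given for this pair of chosen genes. The fast fibre markers had a median difference of 0.14, with 9 of 10 higher in both pools. Quantile normalization gave 6 higher and 1 lower with a median of 0.10, and without the saline 5-8 array the median was 0.08. Their mean level was 11.7 and 11.6 in ProMyo muscle, against 11.6 and 11.5 in saline muscle. Beside these marker counts and those that follow, 29.0% of all genes were higher and 24.0% lower in both pools. Of 8 fibroblast markers, both pools had 6 lower with ProMyo and 1 higher. Their mean level was 5.70 and 5.76 in ProMyo muscle, against 6.01 and 6.05 in saline muscle. Of 6 macrophage markers, 4 were lower in both pools and none was higher, with mean levels of 3.64 and 3.47 in ProMyo muscle, against 3.97 and 3.76 in saline muscle. Of 3 measured markers of dividing cells all were higher in both pools, at means of 1.71 and 1.78 in ProMyo muscle, against 1.15 and 0.88 in saline muscle. Mki67 was within background on both saline arrays, and Top2a and Cdk1 on the saline 5-8 array. The part of these cells in the eEF1A values was not tested.

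The stretches before the starts of Eef1a1 and Eef1a2 are shown because the genes encode close relatives used in different tissues. Both run along the minus strand on GRCm38.p6, Eef1a1 at chr9:78481725-78481874 and Eef1a2 at chr2:181157016-181157165, and neither holds any of the 3 motifs above.
Eef1a1: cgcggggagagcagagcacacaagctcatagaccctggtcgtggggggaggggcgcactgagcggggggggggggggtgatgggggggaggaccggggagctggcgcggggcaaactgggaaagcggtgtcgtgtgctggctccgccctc
Eef1a2: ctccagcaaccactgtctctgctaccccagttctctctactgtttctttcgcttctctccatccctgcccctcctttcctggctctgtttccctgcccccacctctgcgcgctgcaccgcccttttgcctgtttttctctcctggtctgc
C and T made up 79.3% of the Eef1a2 stretch, and 0.171% of all windows had as much in all, while they made up 33.3% of the Eef1a1 stretch. This measure was chosen after the sequences were seen.

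The remaining elongation genes differed little. Eef1d, part of the exchange complex that recharges eEF1A, read 8.56 and 8.36 in ProMyo muscle, against 8.44 and 8.32 in saline muscle. The groups overlapped and the difference of 0.08 ± 0.17 was -0.02 without the ProMyo 1-4 array. Eef1b2, a catalytic subunit of that complex, stood at 0.07 ± 0.18 with opposite directions in the pools. Eef2, the translocase, read 7.81 and 7.68 in ProMyo muscle, against 7.64 and 7.78 in saline muscle, a difference of 0.03 ± 0.16. Its inhibitory kinase gene Eef2k stood at 0.07 ± 0.19. Over the 6 measured elongation genes the median was 0.07, against 0.01 over all genes. In both pools 3 were higher and 1 lower, beside 29.0% and 24.0% of all genes. Without the ProMyo 1-4 array the median was -0.05, against -0.006 over all genes.

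Across all 79 probe sets of the members above background, both pools had 31 higher with ProMyo and 17 lower, which is 39.2% and 21.5%, beside 32.2% and 21.7% of 17317 probe sets of all genes. For eIF3 it was 14 higher and 1 lower of 23, and for eIF4 5 higher and 6 lower of 18. More than 1 probe set lay above background in 22 members. In 3 of them, Eif3d, Eif3e and Eif3m, every one was higher in both pools, and in no member was every one lower. The dimmer probe set of Eif3d, at 1.28 to 1.59, was higher by only 0.028 and 0.022, and that of Eif3m by 0.020 and 0.11. The share of all genes with such agreement was not computed.

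**Figure D4:**
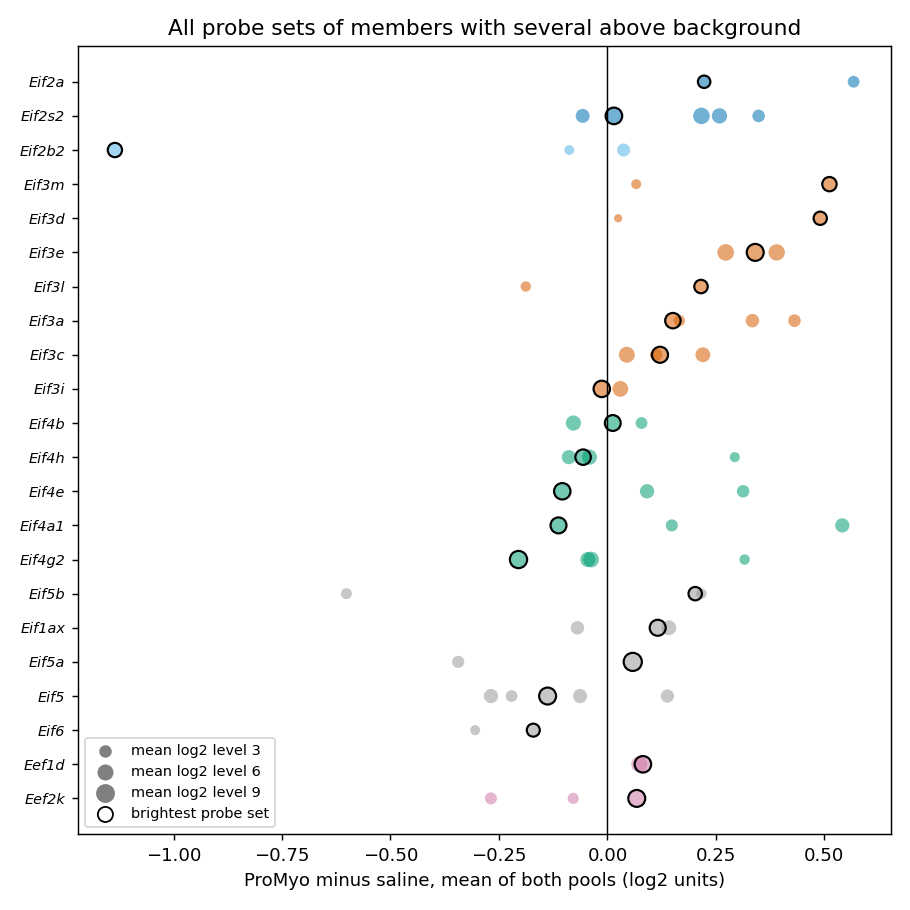
Difference of every probe set above background, ProMyo minus saline as the mean of both pools in log2 units (horizontal axis), for the 22 members with more than 1 (vertical axis). Dot area grows with the mean level and black rings mark the brightest probe set; the 3 probe sets of Eif3e lie together between 0.27 and 0.39, while those of Eif2b2 and Eif4a1 lie on both sides of 0.

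Of 71 further genes of translation, 65 were measured, covering regulators, the stress kinases of eIF2, other factors, enzymes that modify factors, and mitochondrial factors. None was called by limma (smallest adjusted p = 0.82). In both pools 32 were higher with ProMyo and 5 lower, beside 29.0% and 24.0% of all genes, with a median of 0.11 against 0.01 over all genes. Quantile normalization gave 23 higher and 10 lower, beside 25.1% and 29.7%, with a median of 0.04 against -0.02. With the saline 5-8 array left out, 23 were above and 13 below the saline 1-4 array in both ProMyo arrays, beside 29.5% and 36.9%, with a median of 0.02 against -0.02.

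Gfm2, a mitochondrial elongation factor that works in ribosome recycling, read 4.13 and 3.91 in ProMyo muscle, against 3.47 and 3.03 in saline muscle. The difference was 0.77 ± 0.21 (limma, unadjusted p = 0.015, adjusted p = 0.82), and its dimmer probe set was also higher in both pools, by 0.80 and 0.29. Denr, which helps restart initiation after short reading frames, read 6.90 and 6.88 in ProMyo muscle, against 6.16 and 6.61 in saline muscle. Both probe sets of Denr were higher in both pools, the brighter by 0.51 ± 0.21, which was 0.28 without the saline 1-4 array. Eif5a2, the paralog of Eif5a, stood at 0.38 ± 0.16 and Ppp1r15a, a subunit of the phosphatase that acts on eIF2, at 0.40 ± 0.16.

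Bzw2, a protein that mimics eIF5, differed by at least 1.5-fold in both pools, as did Gfm2, and is named after its values were seen. It read 6.59 and 7.28 in ProMyo muscle, against 5.14 and 6.48 in saline muscle, a difference of 1.12 ± 0.49 that was 0.45 without the saline 1-4 array. Its second probe set above background had opposite directions in the pools. Eif4ebp1, the inhibitor that binds eIF4E when growth signals are low, read 5.03 and 5.12 in ProMyo muscle, against 5.76 and 5.28 in saline muscle. The groups did not overlap, with a difference of -0.44 ± 0.21 (limma, adjusted p = 0.83) that was -0.20 without the saline 1-4 array. Its other probe sets gave -0.17, lower in both pools, and 0.09, with opposite directions. Paip1, a partner of the poly(A)-binding protein, stood at -0.22 ± 0.16. Another of its probe sets gave -0.24, and a dimmer one was higher in both pools, by 0.63 and 0.20. Eif2ak3, the endoplasmic reticulum kinase of eIF2, stood at -0.43 ± 0.31 with opposite directions in the pools, and at -0.13, lower in both, at its next probe set. Dph1, of the pathway that modifies eEF2, stood at -0.54 ± 0.20 but lay within background on all 4 arrays.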

How the data were processed

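RNA of 4 pooled muscle samples was measured on Affymetrix mouse arrays, labelled with Nugen kits per the labels' protocols. The deposited values are log2 levels, 1 for each probe set. The submitters' processing notes name RMA and Affymetrix Expression Console as the authors' tools, and no version is given in the sources used here. The log base was read from their range. Of 45101 probe sets, 34945 had 1 gene symbol, 932 several and 9160 none in the probe table, and 64 were controls. Symbols were looked up by gene ID in a RefSeq table of GRCm38.p6 (34741 matched, 0 changed). Each gene took its brightest probe set, and genes under the 25th percentile of means (0.45) were dropped, leaving 15103 genes.

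Limma 3.58.1, run under R 4.3.3, compared ProMyo with saline (lmFit, eBayes, Benjamini-Hochberg, threshold 0.05). The fit had 2 residual and 3.16 prior degrees of freedom and was tested on simulated data. Arrays have no read depth, and their number limits precision. Pools of both groups hold the same animals by their numbers, so the pools are paired by design, with r = 0.16 between the deviations of same-numbered pools across genes. Standard errors and p-values of the unpaired fit leave out this pairing. They rest on the spread between pools of a group, moderated by limma toward that of all genes. Within-pool counts and medians carry no test. Members and lists were chosen with earlier results of these data known. Named members were Eef1a1, Eef1a2, those with an unadjusted p under 0.05, and in each class up to 3 with the largest difference among those with 1 direction in both pools. Further translation genes named were up to 4 with the smallest p in each direction. Alternatives were the pool as a replicate block, other filters, scalings and probe set rules, a variance trend, and leaving out each array. Counts with an array left out were added after the data were seen. Markers of endothelial, T and B, adipocyte, satellite, Schwann, smooth muscle, erythroid and slow fibre cells are summarised in the closing section.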

Additional observations from a re-analysis of the deposited data

How the results depend on the processing

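The count of members past the threshold was 0 under all 11 alternatives fitted with limma, with the smallest adjusted p of a member between 0.46 and 1.00 and, with the paired pools as a replicate block, 0.68, a fit that gave 0 calls over all genes and 1039 at an unadjusted p under 0.05. The 13 members higher and 10 lower in both pools became 7 and 12 with quantile normalization, beside 25.1% and 29.7% of all genes. At the second brightest probe set, which only 25 members have, 8 were higher and 3 lower. The share of all genes was not computed there. Those probe sets of Eef2, Eif2b5 and Eif3h lay within background on all 4 arrays. Counts with any 1 array left out were added after the data were seen and are of members without overlap between groups. They ran from 10 to 21 above and from 7 to 15 below. With all 4 arrays that measure gave 8 above and 7 below, and it is easier to meet with fewer arrays. The median of 0.034 was -0.022 with quantile normalization and ran from -0.032 to 0.100 when any 1 array was left out. That of all genes moved too, being 0.013, then -0.019 with quantile normalization and -0.024 to 0.061 with an array left out. The Eef1a2 shift ran from -0.56 to -0.10 when any 1 array was left out. Of 189 values of the 16 named members under the alternatives, 68 equal the reported difference by construction. Of the other 121, 107 kept their direction and 14 did not. Many of the 107 could not have turned. Leaving out an array cannot reverse groups that do not overlap, and centring on medians shifted all differences by the same small amount. Eif2b5 was -0.0024 with quantile normalization. The mean of probe sets gave 0.19 for Eif4a1, 0.080 for Eif4e, 0.0072 for Eif4g2 and -0.061 for Eif5b. The second brightest probe set gave 0.037 for Eif2b2, -0.073 for Eif2b5, 0.54 for Eif4a1, 0.092 for Eif4e and -0.60 for Eif5b. With any 1 array left out, Eef1d ran from -0.018 to 0.18, Eif6 from -0.39 to 0.052, Eef1a2 from -0.37 to 0.020 and Eif2b5 from -0.0079 to 0.15. The cause of these changes was not tested. With 2 pools per group, differences near the standard errors of 0.15 to 0.47 cannot be resolved.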

Other observations

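Markers of other cells varied too, where 29.0% of all genes were higher and 24.0% lower in both pools. Slow fibre markers had a median difference of -0.24, with 4 of 7 lower and 1, Tnni1, higher in both pools. Tnni1 was within background on all 4 arrays. Without the saline 5-8 array the median of the slow fibre markers was -0.01. There, 3 were below the saline 1-4 array in both ProMyo arrays and 2 were above it. Endothelial markers had a median of 0.07, with 2 of 5 higher. The 3 satellite cell markers and the 2 Schwann cell markers measured had no member with the same direction in both pools, at medians of 0.03 and -0.14, and of 3 smooth muscle markers 1 was higher and 1 lower. Among the T and B cell, adipocyte and erythroid markers, Ms4a1, Lep and Alas2 were within background on all 4 arrays. Of the 3 T and B cell markers 2, Cd3e and Cd8a, were higher and 1 lower in both pools. Cd3e and Cd8a were within background on both saline arrays. The mean levels of the 3 were 0.94 and 0.91 in ProMyo muscle, against 0.62 and 0.84 in saline muscle. Adipoq, the adipocyte hormone gene, read 1.39 and 0.81 in ProMyo muscle, against 1.11 and 2.27 in saline muscle. It was within background on the ProMyo 5-8 array.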
